A study of Saccharomyces cerevisiae with 12 samples.

Results

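The genes described here are the 35 budding yeast (Saccharomyces cerevisiae) genes of sulfate uptake and reduction, of methionine, cysteine and S-adenosylmethionine (SAM) metabolism, and of their regulators. They were chosen by systematic name, and all 35 were found among the 7127 features of the deposited count table. All 35 also passed the filter on low counts, which kept 5990 features. Poly(A) RNA was sequenced in 12 libraries, 3 in each of 4 groups, after 3 hours with estradiol (E2) or ethanol (EtOH). Both strains are labelled mating type a and carry the centromere of chromosome IV between lox sites, marked with KanMX, together with a GDP-creEBD78 gene marked with LEU2 (spelled creEDB78 in the label of the second strain). This gene encodes a Cre recombinase with an estrogen-binding domain, so that estradiol can lead to removal of the centromere. The strain called S10D-labelled carries [HHT-S10D-HHFS]-URA3 in place of hht2-hhf2, a construct labelled with histone H3 S10D. Its label adds the alleles his3::LacR-GFP:HIS3 and TetR-mRFP, the arrays lys4::LacO:hphNT1 and trp1::TetO:TRP1, and leu2-x, bar1-delta and Ade1. The reference strain is labelled met15-delta-0, ura3-delta-0, leu2-delta-0 and his3-delta-1, and MET15 is another name of MET17 (YLR303W). The groups were S10D-labelled cells in E2, S10D-labelled cells in EtOH, reference cells in E2 and reference cells in EtOH. No group lacked the lox sites, so estradiol or Cre alone and the loss of the centromere cannot be told apart. The strains differ in many marker genes besides the histone, so the part of each allele in a strain difference cannot be told apart either. The growth medium is not given in the sources used here. In these bulk libraries, a change in all cells and a change in the share of cells that express a gene cannot be told apart.

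Yeast takes up sulfate, activates it with ATP and reduces it stepwise to sulfide. Met17 joins sulfide to O-acetylhomoserine to make homocysteine, which becomes methionine, SAM or, by transsulfuration, cysteine. Many genes of the route are switched on by the activator Met4, which has no strong DNA binding of its own and is brought to promoters by Cbf1, with Met28, or by the zinc finger proteins Met31 and Met32. Met30, a subunit of an SCF ubiquitin ligase, restrains Met4 when sulfur compounds are plentiful.

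The label of the reference strain was first read against MET17 itself. MET17 (YLR303W, XII 732542 to 733876, build R64), the O-acetylhomoserine sulfhydrylase gene, had 12171, 14082 and 12502 counts in S10D-labelled E2 libraries and 16066, 13852 and 14861 counts in S10D-labelled EtOH libraries. It had 15, 11 and 16 counts in reference E2 libraries and 23, 18 and 16 counts in reference EtOH libraries. The reference strain thus held almost no reads of the gene, as its label states, while the S10D-labelled strain, whose label lists no such deletion, expressed it. Total counts were 9399734 to 11032505 in S10D-labelled E2, 9362173 to 10573069 in S10D-labelled EtOH, 11109036 to 11732921 in reference E2 and 10262162 to 11806239 in reference EtOH libraries. Marker genes of a cells (MFA1, MFA2, STE2, STE6) had 73.5 to 1574 CPM (counts scaled by TMM to a common library size) over all libraries, and those of alpha cells (MFALPHA1, MFALPHA2, STE3, SAG1) had 0 to 58.8 CPM, with SAG1 the highest of them. The third EtOH library of the reference strain was unlike its group. Compared with replicates 1 and 2 over all features, its counts gave a chi-square of 31.0 and 32.0 per degree of freedom, while 10 further pairs of libraries from a same group gave 1.39 to 4.98. Its level of SCR1, a non-coding RNA, was 204 CPM, against 84.6 and 75.2 CPM in replicates 1 and 2. Of the 35 members, 21 were lowest and 10 highest in that library among the 3 of its group, with a median log2 difference of -0.06 from the mean of replicates 1 and 2. The same was not counted over all features.

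The promoters of these genes are shown because many of the members moved together and because the DNA-binding partners of Met4 have short, known cores. A window from 500 bases before to 50 bases after each start codon was searched on both strands for CACGTG, the Cbf1 core, and CTGTGGC, the core of the Met31 and Met32 site, which can share at most 1 base. CACGTG was found in 22 of 35 members (62.9%), against 6.42% of 6000 promoters of the same length. CTGTGGC, or GCCACAG on the other strand, was found in 14 members (40.0%), against 4.17% of all promoters. Either core was found in 29 members (82.9%), against 10.1% of all promoters, and both in 7 members, against 0.45%. In the shorter window of 250 bases before the start codon, either core was found in 16 members (45.7%), against 4.70% of 6001 promoters. A match is a run of letters and not a measured binding site. The windows below are from the RefSeq genome, build R64, read 5′ to 3′ on the strand of the gene, with each core in capitals and 20 bases on either side. They were chosen to show the arrangements found in the genes whose values follow.
SUL2, chrXII:323190-323282, plus strand: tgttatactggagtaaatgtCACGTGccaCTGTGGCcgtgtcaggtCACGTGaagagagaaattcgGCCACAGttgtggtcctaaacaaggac
MET3, chrX:455842-455904, plus strand: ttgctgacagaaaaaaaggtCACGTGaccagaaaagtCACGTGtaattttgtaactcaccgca
MET3, chrX:455965-456011, plus strand: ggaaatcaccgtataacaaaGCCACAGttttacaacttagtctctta
MET14, chrXI:439588-439633, minus strand: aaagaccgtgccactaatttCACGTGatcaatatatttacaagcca
MET16, chrXVI:877785-877830, minus strand: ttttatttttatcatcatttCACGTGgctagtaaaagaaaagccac
MET10, chrVI:213043-213106, plus strand: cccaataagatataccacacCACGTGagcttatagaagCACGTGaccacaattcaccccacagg
MET5, chrX:683564-683638, minus strand: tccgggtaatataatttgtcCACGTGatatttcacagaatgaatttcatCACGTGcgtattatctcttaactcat
MET2, chrXIV:116976-117021, plus strand: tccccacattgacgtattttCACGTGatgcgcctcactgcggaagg
MET17, chrXII:732222-732267, plus strand: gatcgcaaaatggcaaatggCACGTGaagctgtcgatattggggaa
MET13, chrVII:272384-272430, plus strand: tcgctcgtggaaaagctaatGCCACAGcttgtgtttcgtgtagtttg
STR3, chrVII:156402-156448, minus strand: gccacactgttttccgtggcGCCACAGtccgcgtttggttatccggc
SAM2, chrIV:1454735-1454807, minus strand: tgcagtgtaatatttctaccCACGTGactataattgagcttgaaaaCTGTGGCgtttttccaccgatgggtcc
MUP1, chrVII:599117-599163, plus strand: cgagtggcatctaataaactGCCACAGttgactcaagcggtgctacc
MHT1, chrXII:17763-17809, minus strand: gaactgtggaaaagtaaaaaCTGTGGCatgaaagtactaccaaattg
MET28, chrIX:384313-384424, minus strand: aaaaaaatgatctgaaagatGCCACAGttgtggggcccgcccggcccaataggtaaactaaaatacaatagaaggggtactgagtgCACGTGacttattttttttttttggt
MET32, chrIV:964866-964963, minus strand: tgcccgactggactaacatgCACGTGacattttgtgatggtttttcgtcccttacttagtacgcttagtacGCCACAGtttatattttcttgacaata
CBF1, chrX:548571-548616, plus strand: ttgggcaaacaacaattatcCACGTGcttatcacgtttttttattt
MET30, chrIX:268454-268514, plus strand: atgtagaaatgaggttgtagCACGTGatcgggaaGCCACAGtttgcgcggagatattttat
SUL2 held each core in duplicate within the window shown. MET3, MET10 and MET5 each held a pair of CACGTG, and MET3 also held the other core farther on. The MET13, STR3 and MUP1 windows held only the Met31 and Met32 core. MUP1 held another match to this core, at base -430 from its start codon, outside the window printed. MHT1 and MMP1 lie head to head, so the match printed for MHT1 is the same DNA as that of MMP1. SUL1, STR2, SAM1, SAM4, SAM3 and MET31 had no match to either core in these windows.

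**Figure D1:**
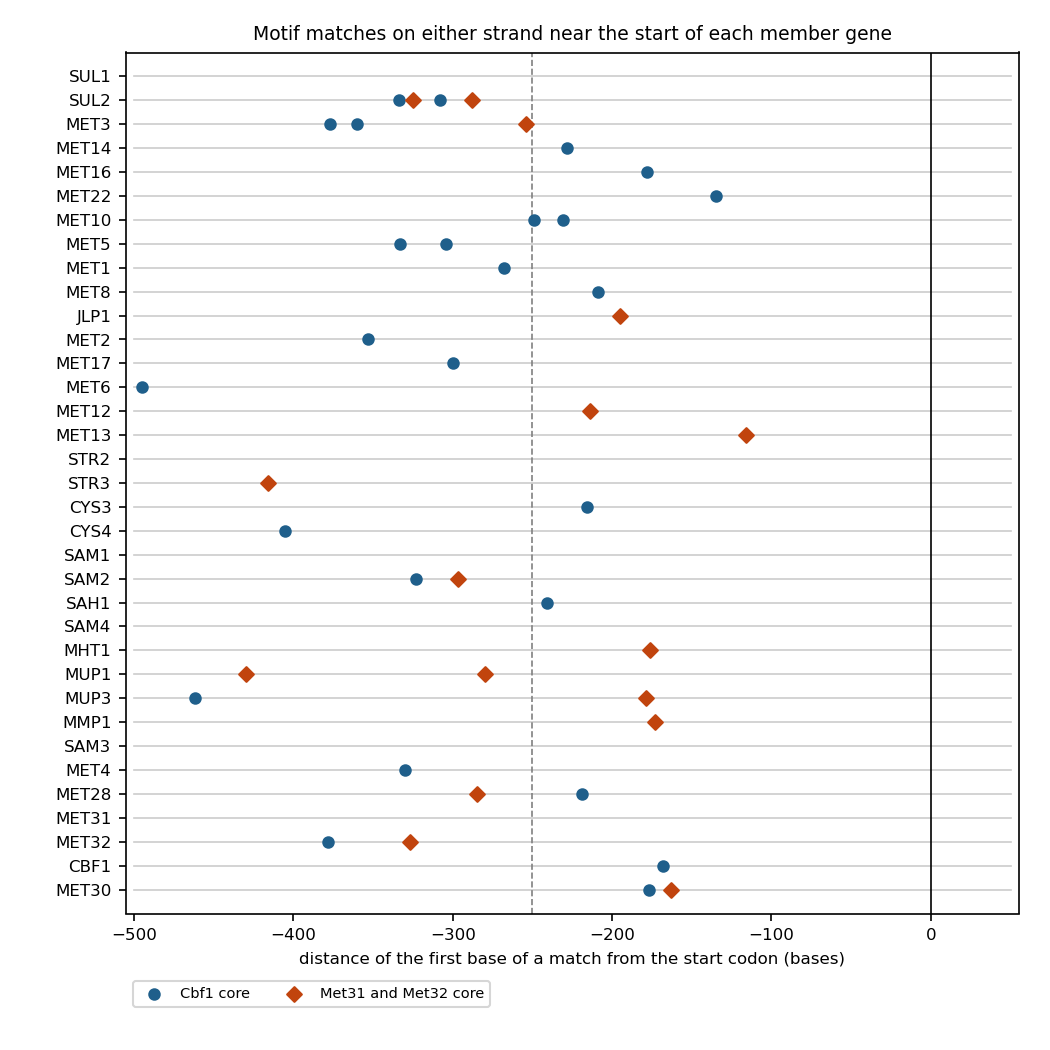
Position of each match to the Cbf1 core (circles) and to the Met31 and Met32 core (diamonds), in bases from the start codon at 0 (solid line), for the 35 members from top to bottom by role. The dashed line marks 250 bases before the start codon, and 29 of the 35 genes hold at least 1 match in the 500 bases drawn.

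The pathway was more strongly expressed in the S10D-labelled than in the reference strain, and the members spanned a wide range of levels. Without MET17, the members held 0.933% ± 0.0131 of all counts in S10D-labelled E2 libraries, 1.04% ± 0.00992 in S10D-labelled EtOH, 0.590% ± 0.00358 in reference E2 and 0.452% ± 0.0197 in reference EtOH libraries (SD, n = 3 each). The 4 groups did not overlap in this share. Per kilobase of gene, CYS4 (YGR155W), the cystathionine beta-synthase gene, was the highest member in both reference groups, with a level of 490.2 ± 5.18 CPM per kb in E2 and 423 ± 12.4 CPM per kb in EtOH (SD, n = 3 each). In the S10D-labelled strain MET17 stood above it, with a level of 968 ± 13.4 CPM per kb in E2 and 1157 ± 20.6 CPM per kb in EtOH. SUL1 (YBR294W), a sulfate permease gene, was the lowest member in all 4 groups. Its level was 2.38 ± 0.369 CPM per kb in E2 and 2.84 ± 0.418 CPM per kb in EtOH in the S10D-labelled strain, and 0.464 ± 0.122 and 0.377 ± 0.237 CPM per kb in the reference strain. JLP1 (YLL057C), the sulfonate dioxygenase gene, was the next lowest in the S10D-labelled strain (8.39 ± 0.952 CPM per kb in E2 and 8.44 ± 1.50 in EtOH).

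The first comparison asked how these genes responded to estradiol in each strain. In the S10D-labelled strain 10 members fell and none rose, and 25 were not called. In the reference strain 20 of the 35 members rose, 3 fell and 12 were not called. Calls, here and below, are from edgeR's quasi-likelihood test, with Benjamini-Hochberg adjustment over all features and a threshold of 0.05. Of all 5990 features, 2.14% were called lower and 2.42% higher in the S10D-labelled strain, and 22.2% lower and 22.4% higher in the reference strain. The median log2 fold change of the members was -0.19 in the S10D-labelled strain and 0.27 in the reference strain, where all features had medians of 0.00 and -0.00. The S10D-labelled response was small, and its calls depended on the libraries fitted. Without reference EtOH replicate 3, 23 members fell, and 484 features fell and 507 rose in all. A fit of the 6 S10D-labelled libraries alone had 24 members lower and 1 higher, with 700 and 670 of all features. DESeq2 had 17 members lower, with 224 of all features. For the reference strain, the calls added without EtOH replicate 3 were MET22 (higher) and MMP1 (lower), beside MET17, which is not read there because it is labelled as deleted. Without any 1 of the S10D-labelled libraries 3 to 5 members fell, and of all features 58 to 69 fell and 43 to 69 rose. The calls of MET14, MET22, STR3, MUP1 and SAM3 ended in each of these fits (edgeR, adjusted p from 0.0606 to 0.169). CYS3 lost its call without E2 replicate 3 (adjusted p = 0.0514), and MET17 without that library or EtOH replicate 1 (0.0529 and 0.0505). MET14 and MUP1 also lost theirs without any 1 of the reference E2 libraries, and STR3 without the first of them. With library totals in place of TMM the split of all features moved to 240 higher and 99 lower in the S10D-labelled strain (145 and 128 with TMM) and to 1805 and 887 in the reference strain (1342 and 1329), and with DESeq2 size factors to 116 and 165 in the S10D-labelled strain.

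The difference between the responses, S10D-labelled minus reference, was tested directly. It was below 0 and called for 20 members and above 0 and called for 1, while 14 were not called. Over all features, 10.6% were called below 0 and 9.82% above, that is 636 and 588 features, against 766 and 463 with library totals and 1002 and 992 without reference EtOH replicate 3. The median difference of the members was -0.53, against 0.01 for all features. With all 12 libraries fitted, of the 10 members that fell in the S10D-labelled strain, 8 rose in the reference strain (SUL2, MET3, MET14, MET16, STR3, CYS3, MUP1 and SAM3), while MET22 was not called there and MET17 is labelled as deleted there. The features with this pair of calls were not counted over the whole set. The S10D-labelled calls of MET14, STR3, MUP1 and SAM3 ended without any 1 S10D-labelled library. CYS3 lost its call in each strain when certain single libraries were left out. The values follow by role, and the plot of levels per library shows 12 of these genes. Counts of calls within a role stand beside the shares of all features given above for each response.

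**Figure D2:**
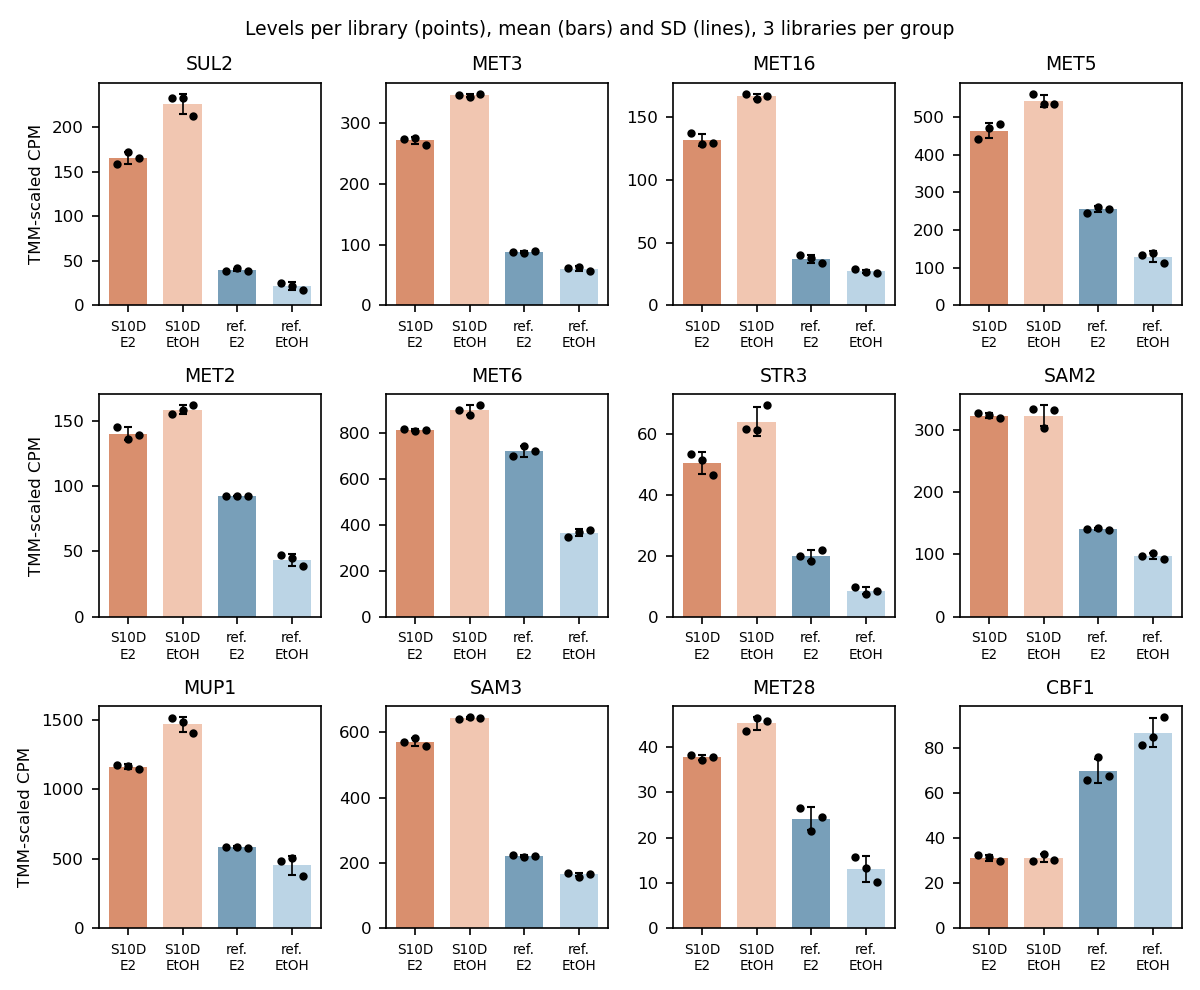
TMM-scaled CPM (vertical axis, from 0) of 12 members in S10D-labelled E2, S10D-labelled EtOH, reference E2 and reference EtOH, with points for libraries, bars for means and lines for SD (3 libraries per group). SUL2, MET3, MET16, STR3, MUP1 and SAM3 were lower in E2 than in EtOH in the S10D-labelled strain and higher in E2 in the reference strain, and CBF1 was lower in every S10D-labelled library than in any reference library.

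Sulfate enters through 2 permeases. SUL2 (YLR092W, XII 323544 to 326225) had 159, 172 and 166 CPM in E2, against 233, 233 and 213 CPM in EtOH in the S10D-labelled strain, a log2 fold change of -0.45 ± 0.08 (SE). It had 39.1, 41.4 and 38.7 CPM in E2, against 25.4, 22.1 and 16.9 CPM in EtOH in the reference strain, a log2 fold change of 0.89 ± 0.11. The E2 and EtOH libraries did not overlap in either strain, and the difference of responses was -1.35 ± 0.14 (edgeR, adjusted p = 1.42e-05). SUL1 (YBR294W, II 789235 to 791814), the other permease gene, had 7.10, 6.15 and 5.20 CPM in E2, against 7.46, 6.18 and 8.33 CPM in EtOH in the S10D-labelled strain. It had 1.45, 1.30 and 0.841 CPM in E2, against 1.16, 0.289 and 1.47 CPM in EtOH in the reference strain, on 3 to 18 counts per library, and its response was called in neither strain (adjusted p = 0.627 and 0.627).

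With all 12 libraries fitted, 3 of the genes that activate and reduce sulfate were called in opposite directions in the strains, MET3, MET14 and MET16. The MET14 call in the S10D-labelled strain ended without any 1 of the S10D-labelled or the reference E2 libraries. Without reference EtOH replicate 3, MET5, MET10, MET1 and MET8 were also called lower in the S10D-labelled strain (edgeR, adjusted p = 5.60e-05, 0.0241, 0.00296 and 0.0375). MET3 (YJR010W, X 456239 to 457774), which encodes ATP sulfurylase, had 274, 276 and 264 CPM in E2, against 346, 342 and 348 CPM in EtOH in the S10D-labelled strain (-0.35 ± 0.04). In the reference strain it had 87.6, 86.4 and 89.2 CPM in E2, against 61.6, 63.1 and 56.5 CPM in EtOH (0.54 ± 0.05). Neither pair of groups overlapped, and the difference of responses was -0.89 ± 0.07 (adjusted p = 9.47e-07). MET14 (YKL001C), the kinase gene of the next step, had 202, 196 and 195 CPM in E2, against 242, 230.3 and 245 CPM in EtOH in the S10D-labelled strain and 59.2, 59.4 and 59.1 CPM in E2, against 39.7, 38.0 and 49.3 CPM in EtOH in the reference strain. MET16 (YPR167C), the gene of the PAPS reductase that releases sulfite, had 137, 128 and 129 CPM in E2, against 168, 164 and 167 CPM in EtOH in the S10D-labelled strain and 39.9, 37.9 and 33.6 CPM in E2, against 28.6, 26.3 and 26.0 CPM in EtOH in the reference strain. Both fell in the S10D-labelled strain (-0.28 ± 0.07 and -0.34 ± 0.06) and rose in the reference strain (0.48 ± 0.08 and 0.46 ± 0.07), without overlap of E2 and EtOH libraries in either strain.

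The genes of sulfite reductase had the largest rises of this role. MET5 (YJR137C, X 678957 to 683285), the gene of one subunit, had 441, 470.1 and 480.3 CPM in E2, against 562, 534 and 534 CPM in EtOH in the S10D-labelled strain, which did not pass the test (-0.23 ± 0.06, adjusted p = 0.0633). The reference strain had 246, 262 and 257 CPM in E2, against 135, 139 and 113 CPM in EtOH (0.99 ± 0.07). MET10 (YFR030W), the gene of the other subunit, had 274, 269 and 257 CPM in E2, against 293, 292 and 289 CPM in EtOH in the S10D-labelled strain (-0.13 ± 0.05, adjusted p = 0.212) and 143, 151 and 151 CPM in E2, against 80.7, 92.5 and 92.7 CPM in EtOH in the reference strain (0.74 ± 0.05). The EtOH libraries of the reference strain lay below all its E2 libraries for both genes, and replicate 3 was the lowest for MET5. The difference of responses was -1.21 ± 0.09 for MET5 and -0.87 ± 0.08 for MET10.

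MET1 (YKR069W) and MET8 (YBR213W), whose enzymes make the siroheme cofactor of sulfite reductase, rose less in the reference strain. MET1 had 124, 121 and 118 CPM in E2, against 148, 134 and 135 CPM in EtOH in the S10D-labelled strain (-0.20 ± 0.06) and 64.5, 63.8 and 60.2 CPM in E2, against 52.7, 48.0 and 43.7 CPM in EtOH in the reference strain (0.39 ± 0.07). MET8 had 33.8, 32.6 and 32.4 CPM in E2, against 39.0, 39.0 and 36.9 CPM in EtOH in the S10D-labelled strain (-0.22 ± 0.07) and 15.9, 18.2 and 19.7 CPM in E2, against 14.0, 14.9 and 14.4 CPM in EtOH in the reference strain (0.31 ± 0.09). The S10D-labelled values were not called (adjusted p = 0.0942 and 0.128), while both differences of responses were (-0.58 ± 0.09 and -0.53 ± 0.11). MET22 (YOL064C), the gene of a phosphatase that clears a by-product of sulfate reduction, had 154, 150.4 and 149 CPM in E2, against 179, 179 and 184 CPM in EtOH in the S10D-labelled strain, where it fell (-0.26 ± 0.06). In the reference strain it had 108, 106 and 98.1 CPM in E2, against 92.1, 94.0 and 108 CPM in EtOH, with overlapping groups and no call (0.09 ± 0.06, adjusted p = 0.260). The overlap came from EtOH replicate 3, without which MET22 was called higher (0.16, adjusted p = 0.00769). JLP1 was called in neither strain (-0.01 ± 0.16 in the S10D-labelled and 0.01 ± 0.21 in the reference strain), at 8.33 to 11.8 CPM in S10D-labelled and 3.18 to 4.58 CPM in reference libraries.

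Of the 5 genes that make homocysteine and methionine, 3 rose with E2 in the reference strain. MET2 (YNL277W, XIV 117349 to 118809), the homoserine O-acetyltransferase gene, had 145, 136 and 139 CPM in E2, against 155, 158 and 162 CPM in EtOH in the S10D-labelled strain, which did not pass the test (-0.18 ± 0.06, adjusted p = 0.109). The reference strain had 92.5, 92.7 and 92.6 CPM in E2, against 47.4, 44.7 and 38.8 CPM in EtOH (1.09 ± 0.06). MET6 (YER091C), the methionine synthase gene, had 818, 807 and 812 CPM in E2, against 900.4, 876 and 919.8 CPM in EtOH in the S10D-labelled strain (-0.15 ± 0.04) and 697, 744 and 719.9 CPM in E2, against 348, 369 and 377 CPM in EtOH in the reference strain (0.98 ± 0.04). E2 libraries of the reference strain lay above all its EtOH libraries for both genes. MET13 (YGL125W), which encodes the main methylenetetrahydrofolate reductase, had 75.7, 79.7 and 73.0 CPM in E2, against 69.4, 70.9 and 66.9 CPM in EtOH in the S10D-labelled strain (0.14 ± 0.08) and 64.1, 68.8 and 74.8 CPM in E2, against 32.7, 34.1 and 26.3 CPM in EtOH in the reference strain (1.16 ± 0.09). The differences of responses were -1.26 ± 0.09 for MET2, -1.13 ± 0.06 for MET6 and -1.02 ± 0.12 for MET13, all called. MET12 (YPL023C), the gene of a second reductase of this kind, was called in neither strain (-0.03 ± 0.06 in the S10D-labelled and 0.09 ± 0.06 in the reference strain). MET17 fell in the S10D-labelled strain, with 1310.0, 1293 and 1274 CPM in E2, against 1576, 1529 and 1528 CPM in EtOH (-0.26 ± 0.05, adjusted p = 0.00629). Its response in the reference strain is not read, because the gene is labelled as deleted there.

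Of the 4 transsulfuration genes 2 fell in the S10D-labelled strain and 3 rose in the reference strain, and among them was the largest rise of any member. STR3 (YGL184C, VII 154615 to 156012), which encodes cystathionine beta-lyase, fell in the S10D-labelled strain, with 53.6, 51.5 and 46.7 CPM in E2, against 61.6, 61.3 and 69.6 CPM in EtOH (-0.34 ± 0.08). It rose in the reference strain, with 19.9, 18.5 and 21.9 CPM in E2, against 9.85, 7.62 and 8.38 CPM in EtOH (1.22 ± 0.11). Its difference of responses, -1.56 ± 0.14, was the farthest from 0 of any member (adjusted p = 4.78e-06). CYS3 (YAL012W), the cystathionine gamma-lyase gene, had 947, 966 and 911 CPM in E2, against 1155, 1093 and 1076 CPM in EtOH in the S10D-labelled strain (-0.23 ± 0.04) and 450.0, 484 and 469 CPM in E2, against 429, 430.1 and 426 CPM in EtOH in the reference strain (0.13 ± 0.04). CYS4 had 1197, 1155 and 1118 CPM in E2, against 1266, 1281 and 1277 CPM in EtOH in the S10D-labelled strain (-0.14 ± 0.04) and 749.6, 753 and 738 CPM in E2, against 627, 665 and 645 CPM in EtOH in the reference strain (0.21 ± 0.04). The rise of CYS3 in the reference strain was small, and its call ended without EtOH replicate 1 or without E2 replicate 2 or 3 (adjusted p = 0.0531, 0.106 and 0.0686). STR2 (YJR130C), the cystathionine gamma-synthase gene, was called in neither strain (-0.08 ± 0.06 in the S10D-labelled and 0.03 ± 0.06 in the reference strain).

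With all 12 libraries fitted, none of the 5 SAM cycle genes was called in the S10D-labelled strain, and 1 rose and 1 fell in the reference strain. Of all features, 22.4% rose and 22.2% fell in the reference strain. Without reference EtOH replicate 3, SAM1 and SAM4 were called lower in the S10D-labelled strain (-0.10 and -0.14, edgeR, adjusted p = 0.0423 and 0.00940). SAM2 (YDR502C, IV 1453310 to 1454464), a SAM synthetase gene, had 326, 324 and 318 CPM in E2, against 333, 303 and 332 CPM in EtOH in the S10D-labelled strain (-0.00 ± 0.05) and 141, 143 and 139.9 CPM in E2, against 97.8, 102 and 92.0 CPM in EtOH in the reference strain (0.54 ± 0.05). Its difference of responses was -0.54 ± 0.07 (adjusted p = 9.24e-05). SAM2 lies on chromosome IV, the chromosome whose centromere can be removed, as does MET32. Whether position on that chromosome matters was not tested. SAM1 (YLR180W), the gene of the other synthetase, had 622, 606 and 601 CPM in E2, against 654, 653 and 646 CPM in EtOH in the S10D-labelled strain (-0.10 ± 0.04, adjusted p = 0.165). Reference cells had 409, 396 and 404 CPM in E2, against 397, 402 and 389.9 CPM in EtOH, with overlapping groups (0.03 ± 0.04, adjusted p = 0.597). The coding sequences of SAM1 and SAM2 are identical at 83.2% of 1149 aligned bases, with a longest shared run of 59 bases. How reads shared between them were counted is not given in the sources used here, which leaves the values of both uncertain. No other pair among the 8 paralog pairs compared exceeded 70.4% (MMP1 and SAM3) or a shared run of 24 bases (SUL1 and SUL2). SAM4 (YPL273W), a homocysteine methyltransferase gene that uses SAM, was not called in the S10D-labelled strain (-0.14 ± 0.04) and fell in the reference strain, with 142, 133 and 141 CPM in E2, against 159.7, 159 and 162 CPM in EtOH (-0.21 ± 0.04), against the direction of most called members. SAH1 (YER043C), the adenosylhomocysteinase gene, and MHT1 (YLL062C), the S-methylmethionine homocysteine methyltransferase gene, were called in neither strain (adjusted p = 0.904 and 0.276 in the S10D-labelled and 0.262 and 0.571 in the reference strain). The difference of responses of MHT1 (-0.22) was called without reference E2 replicate 3 (-0.33, adjusted p = 0.0230).

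Of the 4 genes of organic sulfur uptake, 2 fell with E2 in the S10D-labelled strain and 3 rose in the reference strain. MUP1 (YGR055W, VII 599417 to 601141), the high-affinity methionine permease gene, had 1173, 1169 and 1141 CPM in E2, against 1508, 1485 and 1402 CPM in EtOH in the S10D-labelled strain (-0.34 ± 0.08). In the reference strain it had 587, 587 and 575 CPM in E2, against 483, 505 and 377 CPM in EtOH (0.36 ± 0.08), where EtOH replicate 3 was the lowest library. SAM3 (YPL274W), the SAM permease gene, had 571, 582 and 558 CPM in E2, against 640.3, 648 and 645 CPM in EtOH in the S10D-labelled strain (-0.18 ± 0.04) and 224, 217 and 220.5 CPM in E2, against 171, 159 and 165 CPM in EtOH in the reference strain (0.42 ± 0.04). Neither gene's E2 and EtOH libraries overlapped in either strain. MUP3 (YHL036W), a low-affinity methionine permease gene, had 68.1, 74.2 and 68.0 CPM in E2, against 84.8, 82.8 and 85.0 CPM in EtOH in the S10D-labelled strain (-0.26 ± 0.11, adjusted p = 0.207) and 52.7, 48.5 and 47.5 CPM in E2, against 41.6, 35.1 and 26.8 CPM in EtOH in the reference strain (0.53 ± 0.11). The differences of responses were -0.69 ± 0.11 for MUP1, -0.60 ± 0.06 for SAM3 and -0.79 ± 0.16 for MUP3. MMP1 (YLL061W), the S-methylmethionine permease gene, was called in neither strain (-0.20 ± 0.07 in the S10D-labelled and -0.10 ± 0.08 in the reference strain). Without reference EtOH replicate 3 it was called lower in both (-0.20 and -0.21, adjusted p = 0.000770 and 0.00954).

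**Figure D3:**
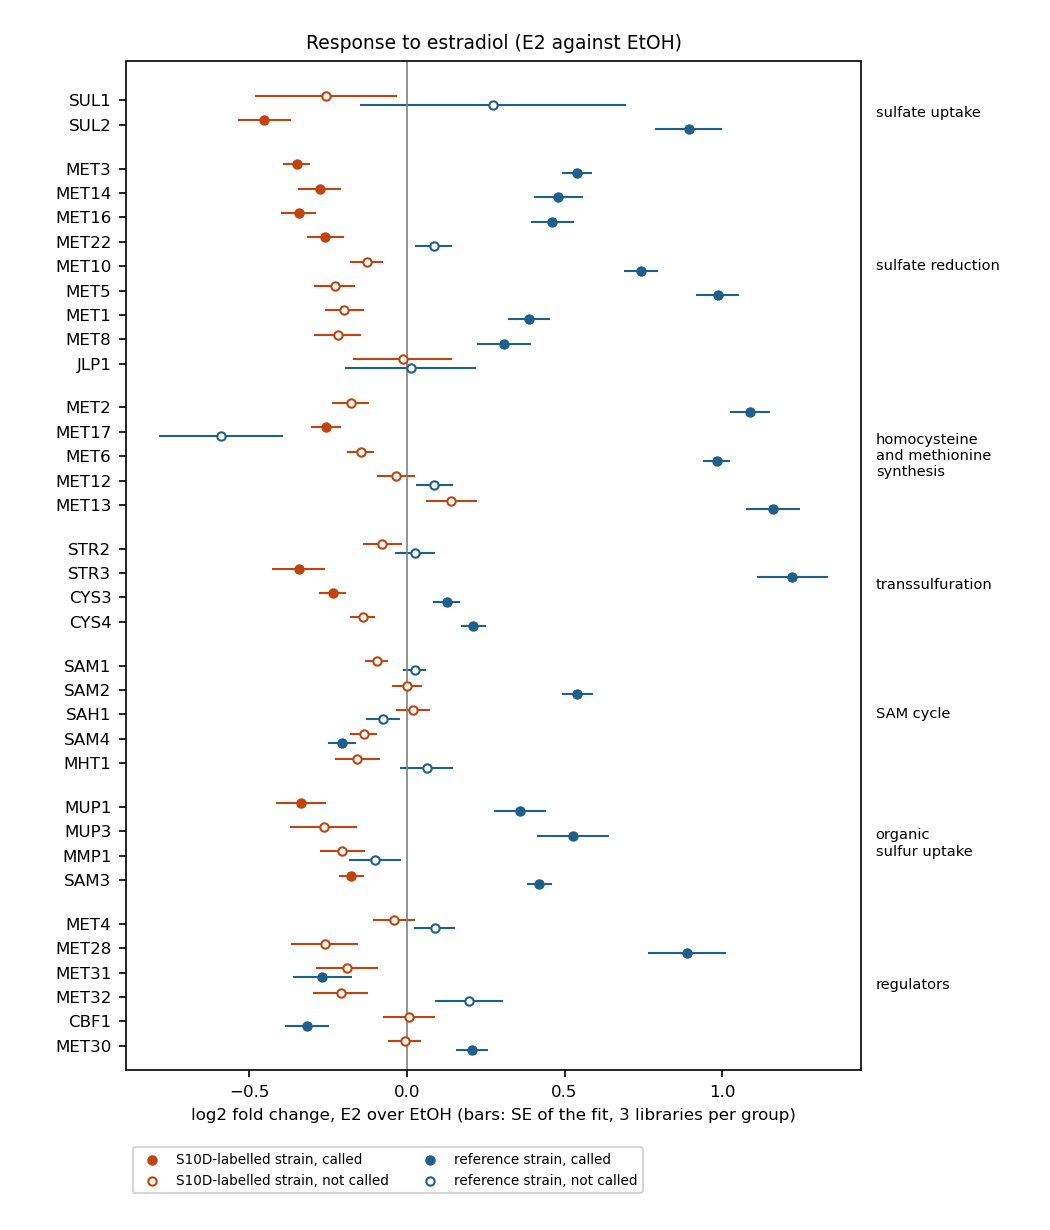
Log2 fold change of E2 over EtOH (horizontal axis) for the 35 members by role, with SE bars, for the S10D-labelled strain and the reference strain (3 libraries per group), filled where called and open where not. The 10 filled S10D-labelled points all lie left of 0, and 20 of the 23 filled reference points lie right of 0. The open reference point of MET17 rests on 11 to 23 counts per library of a gene labelled as deleted.

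With all 12 libraries fitted, none of the 6 regulators was called in the S10D-labelled strain, and 2 rose and 2 fell in the reference strain. Of all features, 22.4% rose and 22.2% fell in the reference strain. Without reference EtOH replicate 3, MET28 and MET32 were called lower in the S10D-labelled strain (-0.26 and -0.21, edgeR, adjusted p = 0.0105 and 0.0408). The fit of the 6 S10D-labelled libraries alone also called both. MET28 (YIR017C, IX 383556 to 384119), the gene of a Met4 cofactor, had 38.3, 37.2 and 37.8 CPM in E2, against 43.6, 46.5 and 45.7 CPM in EtOH in the S10D-labelled strain (-0.26 ± 0.11, adjusted p = 0.209) and 26.5, 21.6 and 24.5 CPM in E2, against 15.8, 13.4 and 10.2 CPM in EtOH in the reference strain (0.89 ± 0.12). Its difference of responses was -1.15 ± 0.16 (adjusted p = 0.000201). MET4 (YNL103W) itself was called in neither strain, with 168, 164 and 168 CPM in E2, against 170.3, 171 and 173 CPM in EtOH in the S10D-labelled and 172, 183 and 179.8 CPM in E2, against 181, 176 and 146 CPM in EtOH in the reference strain. MET30 (YIL046W) was not called in the S10D-labelled strain (-0.01 ± 0.05) and rose in the reference strain, where it had 134, 139 and 143 CPM in E2, against 124, 124 and 113 CPM in EtOH (0.21 ± 0.05). MET32 (YDR253C, on chromosome IV) was called in neither strain (-0.21 ± 0.09 in the S10D-labelled and 0.20 ± 0.11 in the reference strain). Its reference response moved with single EtOH libraries, standing at 0.35 without replicate 1 (adjusted p = 0.00969) and at 0.11 without replicate 3 (adjusted p = 0.440). Its difference of responses was not called (-0.41 ± 0.14, adjusted p = 0.0535) and was called without EtOH replicate 1 (-0.56, adjusted p = 0.00412). That of MET30 (-0.21, adjusted p = 0.0535) was called without any 1 of 5 libraries, among them each reference EtOH library (-0.17 to -0.25). MET31 (YPL038W) and CBF1 (YJR060W, X 548759 to 549814) were not called in the S10D-labelled strain (-0.19 ± 0.10 and 0.01 ± 0.08) and fell in the reference strain (-0.27 ± 0.09 and -0.32 ± 0.07). MET31 stood at -0.14 without EtOH replicate 1, which was its highest library (adjusted p = 0.157), and its call also ended without any 1 of the 3 E2 libraries. CBF1 had 32.4, 31.8 and 30.0 CPM in E2, against 30.1, 33.2 and 30.4 CPM in EtOH in the S10D-labelled strain, with overlapping groups, and 65.8, 76.1 and 67.9 CPM in E2, against 81.5, 85.1 and 94.2 CPM in EtOH in the reference strain, without overlap. It was the only member with a called difference of responses above 0 (0.32 ± 0.11, adjusted p = 0.0490), and this call ended under most alternatives (adjusted p from 0.0269 to 0.122).

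The 29 genes listed for neighbouring steps gave smaller medians. Of the 29, 0 rose and 3 fell in the S10D-labelled strain, HOM3 (-0.35 ± 0.05), the aspartate kinase gene of homoserine supply, GSH1 (-0.27 ± 0.04), which encodes the first enzyme of glutathione synthesis, and YCT1 (-0.23 ± 0.05), a cysteine transporter gene. Of all features, 2.42% rose and 2.14% fell in the S10D-labelled strain. In the reference strain 9 of the 29 rose and 5 fell, against 22.4% and 22.2% of all features. The largest changes there were those of CDC53 (0.69 ± 0.06), the SCF cullin gene, YCT1 (0.67 ± 0.06), DUG3 (0.47 ± 0.08) of glutathione breakdown, the serine hydroxymethyltransferase gene SHM2, which fell (-0.44 ± 0.04), HOM3 (0.43 ± 0.05) and GSH1 (0.37 ± 0.04). CDC53 lies on chromosome IV, as do CDC34, HOM2 and SKP1. In the reference strain CDC34 rose (0.34 ± 0.05), and HOM2 and SKP1 were not called (-0.08 ± 0.05 and -0.14 ± 0.06). The difference of responses was called below 0 for 8 and above 0 for 3 of the 29 genes, against 10.6% and 9.82% of all features. The largest were those of YCT1 (-0.90 ± 0.08), HOM3 (-0.78 ± 0.07), GSH1 (-0.65 ± 0.05), CDC53 (-0.61 ± 0.09), the methionine sulfoxide reductase gene MXR1 (-0.49 ± 0.12) and DUG3 (-0.48 ± 0.11). The median log2 fold change of the 29 genes was -0.06 in the S10D-labelled and -0.04 in the reference strain, and their median difference of responses was -0.09.

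The second question was how the strains differed within each treatment. These comparisons use the same libraries as the responses above, so the values stand side by side and are not set against each other. In E2, 29 of 35 members were higher and 3 lower in the S10D-labelled strain, and 3 were not called. In EtOH, 31 were higher, 2 lower and 2 not called. Over all features, 27.0% were called higher and 27.3% lower in E2, and 26.7% higher and 31.4% lower in EtOH. With library totals the E2 split of all features was 1154 higher and 2186 lower, in place of 1616 and 1638. Members called and at least 2-fold apart numbered 15 in E2 and 25 in EtOH, against 443 and 546 of all 5990 features. The median log2 fold change was 0.86 in E2, against -0.01 for all features, and 1.53 in EtOH, against -0.03. All 29 members that were higher in E2 were also higher in EtOH. MET17, absent from the reference strain by its label, is 1 of the members counted as higher, and its fold is not given as a measure of regulation.

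Sulfate uptake and reduction genes were all higher in the S10D-labelled strain in both treatments. SUL2 stood 2.06 ± 0.09 in E2 and 3.40 ± 0.10 in EtOH above the reference strain (log2, SE, n = 3 per group). MET16 stood 1.82 ± 0.06 in E2 and 2.63 ± 0.06 in EtOH above it, MET3 1.63 ± 0.05 and 2.52 ± 0.05, and MET14 1.74 ± 0.07 and 2.49 ± 0.07. The S10D-labelled libraries lay above all reference libraries of the same treatment for these 4 genes (adjusted p in EtOH from 1.06e-14 for MET3 to 2.02e-12 for SUL2). SUL1 was higher by 2.35 ± 0.30 in E2 and 2.88 ± 0.31 in EtOH, at the low levels given above. The sulfite reductase genes stood 0.86 ± 0.07 in E2 and 2.08 ± 0.07 in EtOH (MET5), and 0.85 ± 0.05 and 1.72 ± 0.06 (MET10). MET1, MET8, MET22 and JLP1 were higher too, by 0.95, 0.88, 0.54 and 1.47 in E2 and by 1.53, 1.40, 0.88 and 1.49 in EtOH.

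Among the genes that make homocysteine and methionine, the strains lay close together in E2 for MET6, MET13 and MET12, and farther apart for MET2. MET6 stood 0.17 ± 0.04 in E2 and 1.30 ± 0.04 in EtOH above the reference strain. Its E2 call ended with library totals in place of TMM (edgeR, adjusted p = 0.0578). MET13 stood 0.14 ± 0.08 in E2, which was not called (adjusted p = 0.164, or 0.0267 without reference EtOH replicate 3), and 1.16 ± 0.09 in EtOH. MET2 stood 0.60 ± 0.06 in E2 and 1.86 ± 0.06 in EtOH. MET12 was not called in E2 (0.06 ± 0.06, edgeR, adjusted p = 0.430) and was higher by 0.18 ± 0.06 in EtOH. That EtOH call ended without reference EtOH replicate 1 or S10D-labelled EtOH replicate 2 (adjusted p = 0.0793 and 0.0737). It also ended with library totals in place of TMM. In transsulfuration, STR3 stood 1.33 ± 0.09 in E2 and 2.90 ± 0.10 in EtOH, CYS3 1.01 ± 0.04 and 1.37 ± 0.04, CYS4 0.63 ± 0.04 and 0.98 ± 0.04, and STR2 0.56 ± 0.06 and 0.67 ± 0.06.

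All 5 SAM cycle members and all 4 genes of organic sulfur uptake were higher in the S10D-labelled strain in both treatments. SAM2 stood 1.19 ± 0.05 in E2 and 1.73 ± 0.05 in EtOH, and SAM1 0.60 ± 0.04 and 0.72 ± 0.04. MHT1 had 56.1, 54.5 and 56.2 CPM in S10D-labelled E2 libraries, against 22.8, 22.4 and 18.0 CPM in reference E2 libraries (1.40 ± 0.08). In EtOH it had 61.8, 60.2 and 63.9 CPM in S10D-labelled libraries, against 20.2, 20.4 and 20.0 CPM in reference libraries (1.62 ± 0.08). Its neighbour MMP1 (XII 17956 to 19707) had 184, 184 and 189 CPM in S10D-labelled E2 libraries, against 43.2, 41.7 and 43.7 CPM in reference E2 libraries (2.11 ± 0.08). In EtOH it had 206, 225 and 212 CPM in S10D-labelled libraries, against 52.4, 46.6 and 39.3 CPM in reference libraries (2.22 ± 0.08). The strains did not overlap for either of these neighbours in either treatment, but lack of overlap was part of the rule by which their values were printed. SAM3 and SAM4, which lie side by side on chromosome XVI, stood 1.37 and 0.70 in E2 and 1.97 and 0.63 in EtOH. MUP1 stood 0.99 ± 0.08 in E2 and 1.69 ± 0.08 in EtOH, MUP3 0.50 ± 0.11 and 1.29 ± 0.11, and SAH1 0.39 ± 0.05 and 0.29 ± 0.05.

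Among the regulators, the DNA-binding partners of Met4 moved in opposite directions between strains. CBF1 was lower in the S10D-labelled strain by log2 values of -1.16 ± 0.08 in E2 and -1.48 ± 0.08 in EtOH, and no library of one strain overlapped the other. MET32 had 37.7, 39.3 and 37.8 CPM in S10D-labelled E2 libraries, against 15.2, 13.3 and 13.5 CPM in reference E2 libraries (1.45 ± 0.10). In EtOH it had 43.9, 43.8 and 45.0 CPM in S10D-labelled libraries, against 14.7, 11.3 and 10.7 CPM in reference libraries (1.86 ± 0.10). MET28 was higher by 0.64 ± 0.11 in E2 and 1.79 ± 0.12 in EtOH. MET31, the paralog of MET32, was lower by small amounts (-0.24 ± 0.10 in E2 and -0.32 ± 0.10 in EtOH), and its E2 call had an adjusted p of 0.0499 and ended under most alternatives. Its EtOH call ended without reference EtOH replicate 1 (adjusted p = 0.0509). MET4 was called in neither treatment (-0.10 ± 0.07 in E2 and 0.03 ± 0.07 in EtOH), although leaving out reference EtOH replicate 3 gave its E2 value an adjusted p of 0.0208, and MET30 was lower in E2 (-0.18 ± 0.05) and not called in EtOH (0.03 ± 0.05).

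**Figure D4:**
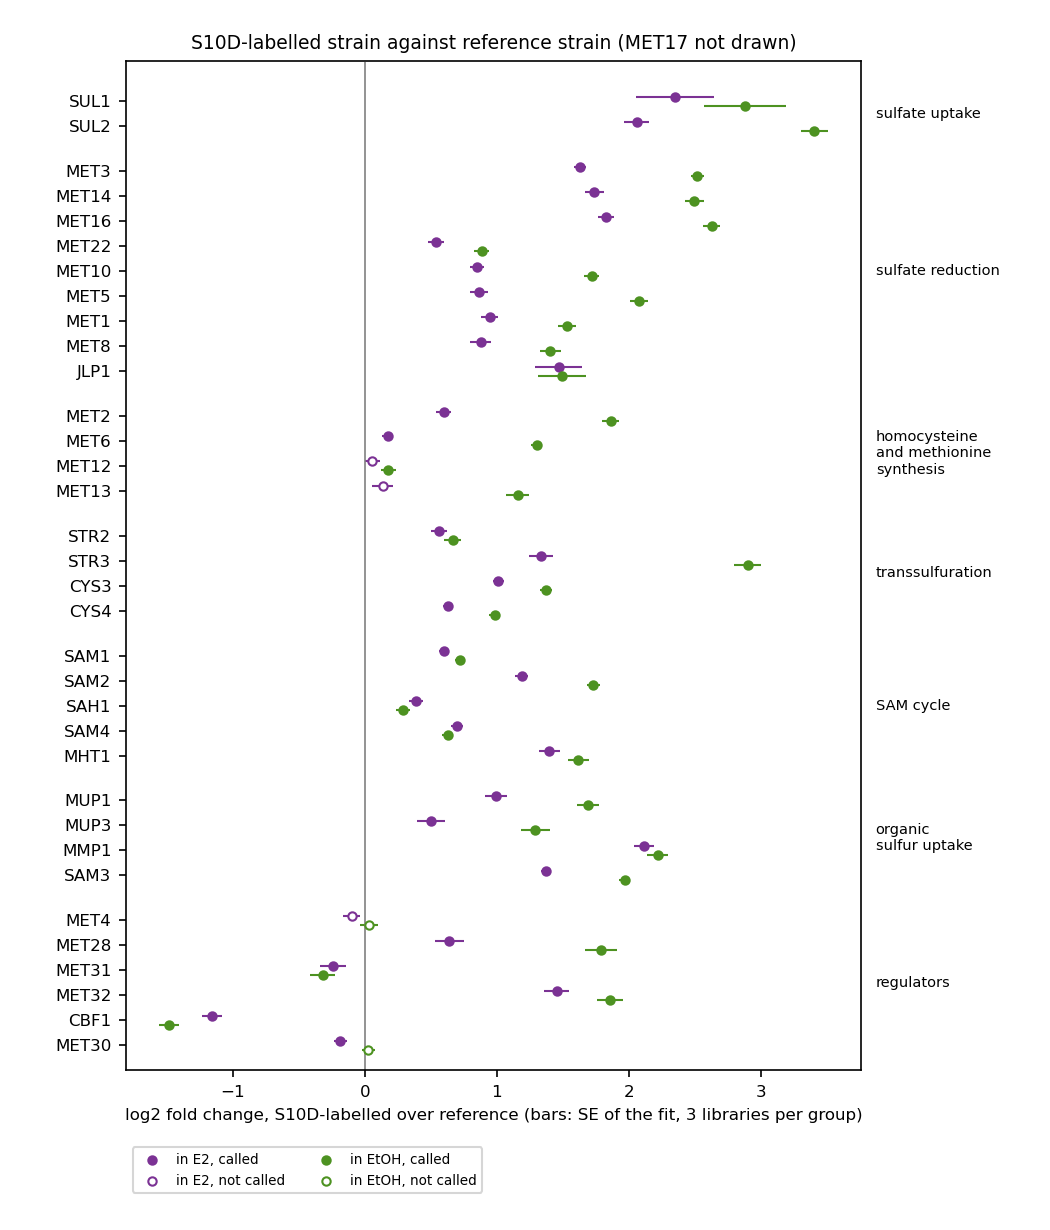
Log2 fold change of the S10D-labelled over the reference strain (horizontal axis) for 34 members by role, in E2 and in EtOH, with SE bars (3 libraries per group), filled where called and open where not. MET17, deleted in the reference strain by its label, is not drawn. SUL2, STR3 and MET16 are among the widest gaps in EtOH, and CBF1 and MET31 lie left of 0 in both treatments.

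Among the 29 other genes of the pathway, 13 were higher and 3 lower in E2, and 16 were higher and 5 lower in EtOH, with medians of 0.14 and 0.21. Of all features, 27.0% were higher and 27.3% lower in E2, and 26.7% were higher and 31.4% lower in EtOH. GSH1 led in both treatments (1.78 ± 0.04 in E2 and 2.43 ± 0.04 in EtOH). In E2 it was followed by ADI1 (1.77 ± 0.05) of methionine salvage, SHM2, which was lower (-1.22 ± 0.04), ECM38 (1.22 ± 0.06) of glutathione breakdown, HOM3 (1.19 ± 0.05) and the sulfonate transporter gene SOA1 (1.12 ± 0.09). In EtOH it was followed by HOM3 (1.97 ± 0.05), ADI1 (1.91 ± 0.05), YCT1 (1.85 ± 0.06), ECM38 (1.66 ± 0.06) and MXR1 (1.54 ± 0.09).

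The members were last grouped by the cores in the 500 bases before their start codons, leaving out MET17, as a description with no test. The 7 members with both cores had a median difference of responses of -0.79, the 14 with the Cbf1 core alone -0.56, the 7 with the Met31 and Met32 core alone -0.22 and the 6 with neither -0.11. With E2, 2 of 7, 4 of 14, 2 of 7 and 1 of 6 members of these groups fell in the S10D-labelled strain. In the reference strain 6, 10, 3 and 1 of them rose, and 0, 1, 0 and 2 fell. Of all features, 22.4% rose and 22.2% fell in the reference strain, and 2.14% fell in the S10D-labelled strain. This grouping rests on the 500-base window, which was added after the 250-base matches had been seen. In the 250-base window 1 member held both cores. The median strain difference in EtOH was 1.79, 1.39, 1.62 and 0.69, and in E2 it was 1.19, 0.74, 1.33 and 0.65, in the same order of groups. The ranges of the groups overlapped. With the Met31 and Met32 core alone, for example, the difference of responses spanned -1.56 (STR3) to -0.02 (JLP1), and with neither core it spanned -0.60 (SAM3) to 0.08 (MET31).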

How the data were processed

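The authors deposited counts, the unscaled number of reads assigned to each of 7127 features, with 1 column for each of 12 libraries. Per the labels' protocols, libraries were made from 400 ng of total RNA with a stranded poly(A) kit and 12 PCR cycles. The submitters' processing notes name builds R64 and sacCer3 and the tools HTSeq 0.6.1p1, STAR 2.5.3a, cutadapt 1.10 and bcl2fastq 2.20.0.422, without roles. The counting mode, strand setting and annotation release are not given in the sources used here.

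Counts were filtered with edgeR 4.0.16 (filterByExpr, minimum count 10, minimum total count 15), scaled by TMM and tested with the quasi-likelihood test (robust, 2-sided, R 4.3.3). All 12 libraries entered 1 model with a mean for each of 4 groups and 8 residual degrees of freedom. Calls use a Benjamini-Hochberg adjusted p under 0.05 over 5990 features. Levels are TMM-scaled CPM, with SD over 3 libraries. SE is the size of the log2 fold change divided by the square root of its F statistic in the fit of all 12 libraries. Separate cultures are not mentioned in the labels, so p-values measure the spread between these libraries. No replicates agreed within sampling noise.

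Names, positions and sequences are from RefSeq, build R64, and all 35 members matched. Protein tables were not used here, so paralogs were compared as coding sequences (global alignment). The members, the gene lists and the tests were chosen with earlier results of these data known. Every member could be named. By rule, values per library were given for MET17, for members with a called difference of responses and for the up to 2 most changed called members per role and comparison with no overlap of libraries and at least 10 CPM, and of the other 29 genes up to 6 called ones were named per comparison. Values per library of SUL1, SAM1, MET4 and MET30 fall outside this rule and were added after they were seen. HOM2, SKP1 and CDC34 were also named outside it, because they lie on chromosome IV. Alternatives were DESeq2 1.42.0, DESeq2 size factors, library totals without TMM, no filter on low counts, a floor of 10 CPM on the mean, a log2 fold change of 1 or more in size, an adjusted p under 0.01, the replicate number as a block, only the 6 libraries of a comparison, and leaving out each library. The 500-base promoter window was added after the 250-base matches had been seen. The script for the tests was checked on simulated data.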

Additional observations from a re-analysis of the deposited data

Results flagged for a closer look

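The response to estradiol differed between the strains, by the test of the difference itself (S10D-labelled minus reference, edgeR, adjusted p under 0.05), for 21 of the 35 members. Among sulfate uptake and reduction genes the log2 difference was -1.35 for SUL2, -1.21 for MET5, -0.89 for MET3, -0.87 for MET10, -0.80 for MET16, -0.76 for MET14, -0.58 for MET1, -0.53 for MET8 and -0.34 for MET22. Among genes of methionine and cysteine synthesis it was -1.26 for MET2, -1.13 for MET6, -1.02 for MET13, -1.56 for STR3, -0.36 for CYS3 and -0.35 for CYS4. It was -0.54 for SAM2, -0.69 for MUP1, -0.79 for MUP3, -0.60 for SAM3, -1.15 for MET28 and 0.32 for CBF1. Of the other genes of the pathway, the 6 largest were those of YCT1 (-0.90), HOM3 (-0.78), GSH1 (-0.65), CDC53 (-0.61), MXR1 (-0.49) and DUG3 (-0.48). Of all features tested, 10.6% were called below 0 and 9.82% above 0 in this test. The groups hold 3 libraries each, so single outlying libraries were not tested within groups.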

How the results depend on the processing

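No called member value changed direction under any alternative run. Of 3630 member values over all alternatives, 3398 kept their side of the threshold, 165 lost the call and 67 gained one, and 42 values that were not called changed sign. With DESeq2, 17 members (224 of all features) fell with E2 in the S10D-labelled strain. At an adjusted p under 0.01, 5 members (63 of all features) did. The fit of the 6 libraries compared had 24 members lower and 1 higher in that response, against 700 and 670 of all features. It had 1 lower member in the EtOH strain comparison, against 1479 of all features. The single member above 0 in the difference of responses, CBF1, was lost (0 members) with DESeq2, DESeq2 size factors, library totals, no low-count filter, a floor of 10 CPM and an adjusted p under 0.01. Requiring a log2 fold change of 1 or more in size, 0 members were lower in the S10D-labelled response. Of all features, 0 were lower and 4 higher there. In the reference response 3 members were higher and 0 lower, against 117 and 12 of all features. In the difference 7 members were below and 0 above 0, against 71 and 8 of all features. The E2 strain comparison had 14 members higher and 1 lower, against 170 and 273 of all features. The EtOH strain comparison had 24 members higher and 1 lower, against 267 and 279 of all features. An adjusted p under 0.01 also left 1 lower member there.

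Leaving out 1 library at a time gave 3 to 23 members lower and 0 higher in the S10D-labelled response. Of all features, 58 to 484 were lower and 43 to 507 higher there. In the reference response 19 to 21 members were higher and 2 to 5 lower, with 5 lower without EtOH replicate 3 (MET17, labelled as deleted, among them). Of all features, 1103 to 1566 were higher and 1030 to 1567 lower there. In the difference 20 to 22 members were below and 0 to 1 above 0, against 491 to 1002 and 411 to 992 of all features. The E2 strain comparison had 29 to 30 members higher and 2 to 4 lower, against 1424 to 1976 and 1377 to 2013 of all features. The EtOH strain comparison had 30 to 31 members higher and 1 to 2 lower, against 1459 to 1847 and 1664 to 2088 of all features. Same-numbered libraries of different groups had deviations correlated between -0.07 and 0.13, above 0.1 in 3 of 18 pairs, so the numbers were not taken as pairs. With the replicate block, 11 members were lower in the S10D-labelled response in place of 10, MET1 being the one added, and the members called in the other comparisons were the same. The level of MET17 in reference EtOH libraries was 0.127% of that in S10D-labelled EtOH libraries by counts and 0.115% by TMM-scaled CPM. The 6-library fit was not run for the difference of responses. Depth limits SUL1 in the reference strain, where 3 to 18 counts per library gave an SE of 0.42 on its log2 response.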
